A study of Drosophila melanogaster with 266 samples.

Results

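C2 is a neuron of the fly optic lobe, and its nuclear RNA was measured in 2 of the 266 libraries of a series that profiled nuclei of Drosophila melanogaster cell types. The 2 libraries, named here C2 replicates 1 and 2, came from the split-GAL4 driver C2_d1 (line SS00778, in which R20C11 drives the activation domain of GAL4 and R25B02 its DNA-binding domain). They were chosen by their driver label. The nuclear envelope tag UNC84-2XGFP, expressed from 10XUAS, was carried by every INTACT library compared here. INTACT is the capture of tagged nuclei on antibody-coated beads. Frozen heads of adult flies, pooled in large numbers and of both sexes, were the starting material, and the flies had been kept on a light and dark cycle and collected late in the light phase.

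C2 was set against C3 (2 libraries, driver C3_d1, line SS00688, with R26H02 and R29G11), against all 18 other single neuron types made with INTACT (38 libraries, C3 included), and against a driver that labels C2 and C3 together (2 libraries, C2.C3_d1, line SS00779, with R20C11 and R48D11). The combined driver shares the activation-domain construct of C2_d1. Mock captures, made with no driver or with beads carrying an antibody the tag does not bind, gave the background (4 libraries). Statements about deposited on and off states use 62 single neuron types, of which the 43 not made with INTACT came from TAPIN, a related capture with an added purification step. What limits the model is the driver: the driver description lists weak label in some central brain cells for C2_d1, C2, C3 and all other INTACT types except L1 are represented by 1 driver line each, and the labels do not say whether the 2 libraries of a type came from separate fly cultures. P-values therefore measure the spread between libraries, which may be technical.

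C2 and C3 are the centrifugal columnar cells of the optic lobe. Each sends an axon from the medulla back to the lamina, against the direction in which visual signals travel, and both are known as GABA neurons that receive strong input from L1 and contact lamina neurons such as L1 and L2. GABA is made from glutamate by the enzyme Gad1 and loaded into vesicles by VGAT. Neurons of this kind can release a neuropeptide or a gas such as nitric oxide beside their fast transmitter, and Allatostatin C (AstC), a peptide related to vertebrate somatostatin, is one such candidate. Their wiring is laid down with families of cell surface proteins that recognise each other, among them the dpr and DIP proteins and the beat and side proteins, while transcription factors such as homeodomain proteins set which of these genes a cell uses.

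Levels are in TPM, transcript abundances that are scaled for transcript length and rescaled over coding genes to the same total in each library. Read depth is not carried by TPM, so no counting interval was computed. Values below are given for C2 replicate 1 and then replicate 2 (or the same for another driver), means carry the SD (n = 2 libraries), and differences are log2(TPM + 1) of C2 minus the other side with their SE. In the C2 libraries 6978 and 7186 genes reached 10 TPM, within the 6572 to 8327 of the INTACT libraries, and Pearson's r between the 2 libraries was 0.986 across 13931 genes, which share both the driver and the processing and are not independent. The defining glial genes repo and wrapper and the pigment cell gene lz were under 1 TPM in both C2 libraries. The 4 pigment cell markers, lz among them, summed to 495 and 504 TPM in C2 and 624 and 740 TPM in C3. Their sum was 153 to 456 TPM in the mock captures, and w was the highest of them in C2. The summed level of 5 glial markers was 39.4 and 43.4 TPM in C2, 33.2 and 42.9 TPM in C3 and 614 to 1005 TPM in the mock captures. That of 8 photoreceptor markers was 421 and 571 TPM in C2, 329.9 and 572 TPM in C3 and 2651 to 5821 TPM in the mock captures, most of it in C2 from ninaE, the main rhodopsin. Of 14 muscle, fat body and blood cell markers tested, 5 were called higher in C2 than in C3 and none lower (22.0% of all genes tested were called higher and 17.9% lower). The sums of 4 fat body markers overlapped, at 221 and 336 TPM in C2 and 195 and 477 TPM in C3, whereas those of 3 blood cell markers were 5.24 and 8.51 TPM in C2, 1.74 and 1.64 TPM in C3 and 107 to 428 TPM in the mock captures. Their part in the results below was not tested. The tag transcript UNC84-2XGFP was level between C2 (34443 and 34035 TPM) and C3 (35069 and 31782 TPM), whereas the transcript of the GAL4 DNA-binding domain was at 1055 and 910.5 TPM in C2 and 193 and 234 TPM in C3. A bulk library cannot tell a lower level in every nucleus from expression in fewer of the nuclei.

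Both genes that mark C2 were present. Gad1 was at 1585 and 1429 TPM in C2 (1507 ± 109.8) and 2207 and 2085 TPM in C3, against a median of 9.79 TPM over the 18 other INTACT types and 41.8 to 99.3 TPM in the mock captures. Mi4 (1991 and 2339 TPM) was the other INTACT type with a high level, and the highest library of the remaining 16 types was at 38.8 TPM. VGAT was at 459 and 414 TPM and ranked 3 of 62 neuron types. Markers of other fast transmitters were low: VAChT, the vesicular acetylcholine transporter, was at 11.8 and 13.3 TPM, and VGlut, the vesicular glutamate transporter, at 3.74 and 5.25 TPM. AstC was at 68.7 and 79.7 TPM in C2 (74.2 ± 7.84) and 5.55 and 10.2 TPM in C3. The highest AstC level of all neuron types was in L4 (1357 and 1362 TPM), and among INTACT types Lawf1 (77.5 and 81.9 TPM), C2 and Tm9 (71.8 and 73.1 TPM) followed, with C2 overlapping both of the others. Over all 4 Lawf1 libraries, which include a second driver made with TAPIN, the lowest AstC level was 0.31 TPM. The authors' model placed AstC off in Lawf1. Mock captures ranged from 0.7 to 203 TPM for AstC, so its level in C2 was not above every background library, although both C2 libraries were above both C3 libraries and the authors' model placed AstC on in C2 and off in C3.

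**Figure D1:**
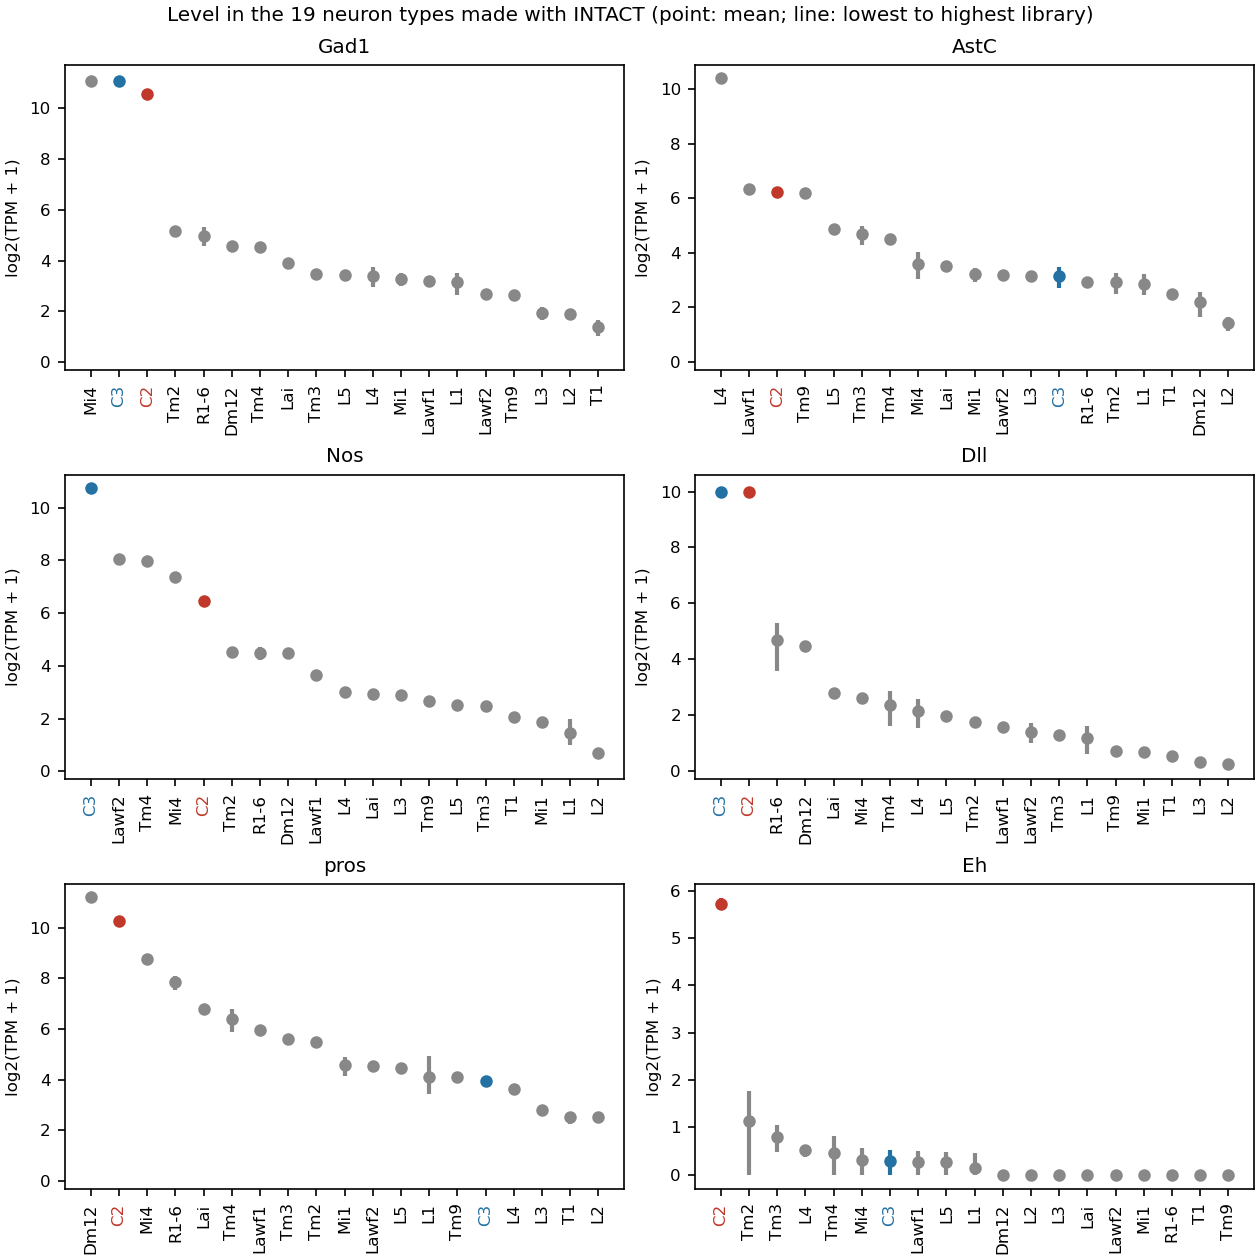
Level of 6 genes in the 19 neuron types made with INTACT, as log2(TPM + 1), with points for type means and lines from the lowest to the highest library. Gad1 and Dll set C2 and C3 apart from nearly all other types, AstC, pros and Eh were higher in C2 than in C3, and Nos was at 86.2 TPM in C2 against 1707 TPM in C3.

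C2 differed from the mean of the 18 other INTACT types by more than 1 on the log2 scale in 543 of 9784 genes tested (5.55%), 383 of them higher (3.91%) and 160 lower (1.64%), by limma's treat test with Benjamini-Hochberg adjustment at 0.05. C3 is 1 of those 18 types. Without C2 replicate 1 the count was 358, and without C2 replicate 2 it was 375. Several transcription factors were high in both C2 and C3. Dll, the homeodomain factor of leg and antenna development, was at 1097 and 909 TPM in C2 and 1081 and 952 TPM in C3 against a median of 2.18 TPM (difference from the other types 7.74 ± 0.31, adjusted p = 4.71e-15). Ets65A, an ETS-domain factor, was at 714 and 617 TPM against a median of 3.80 TPM (6.46 ± 0.35, adjusted p = 3.35e-12). T1 was also high in Ets65A, at 378 to 412 TPM. The Pax6 gene toy, an eye selector gene, was at 1202 and 1139 TPM against a median of 22.2 TPM (5.17 ± 0.19, adjusted p = 4.71e-15). Mock captures held 453 to 769.5 TPM of toy. Between C2 and C3, Dll and Ets65A did not pass the test (adjusted p = 0.979 and 0.502), while toy was lower in C2 (-0.91 ± 0.27, adjusted p = 0.00747), a call that was lost without C2 replicate 2 (-0.87, adjusted p = 0.0524). The homeodomain gene hbn and the forkhead gene fd59A were also higher in C2 than in the other types, hbn at 148 and 141 TPM (median 2.32 TPM) and fd59A at 147 and 118 TPM (median 2.10 TPM). Neither was highest in C2: for hbn the means of T1 (664 TPM), C3 (322 TPM), Lawf2 (224 TPM) and Lai (160.2 TPM) were above both C2 libraries, and for fd59A C2 ranked 4 of the 19 INTACT types.

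Gad1 itself was higher in C2 than in the other types by 6.36 ± 0.21 (adjusted p = 2.05e-16). CG14989, at 7709 and 8568 TPM in C2 and 16689 and 18971 TPM in C3 (5.84 ± 0.32 above the other types, adjusted p = 7.38e-12), lies on chromosome arm 3L, 4087581 to 4092706, on the strand opposite to Gad1 (3L, 4074077 to 4088744), and the ends of both genes overlap. Coordinates are those of BDGP6.54, the assembly also called dm6. The counting is not stated to have used strand, so reads of overlapping genes cannot be told apart, and the values of CG14989 are given with that limit. CG17777, SmydA-3 and CG4546, described with the comparison to C3 and with the marker genes, were also among the 10 genes with the largest positive difference. CycA, the cyclin A gene, was at 140.0 and 151 TPM in C2, 1.13 and 3.20 TPM in C3 and a mean of no more than 15.3 TPM in any other INTACT type. Another of the 10, Eh, encodes eclosion hormone, a peptide that in development takes part in the shedding of the cuticle.

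Among the genes lower in C2, the homeobox gene scro was at 7.13 and 7.09 TPM in C2 and 6.95 and 5.64 TPM in C3, against a median of 1513 TPM over the other types (-5.90 ± 0.18, adjusted p = 1.57e-16). Its C2 libraries were below those of 17 of the 18 types, the exception being C3, and the mock captures held 848 to 1904 TPM. Sytalpha, a synaptotagmin, was at 1.93 and 3.58 TPM against a median of 109 TPM (-4.27 ± 0.23, adjusted p = 1.64e-11), below the libraries of all 18 types. C3 was also low in Sytalpha, with a mean of 5.61 TPM. VAChT, which shares its first exon with ChAT, differed from the other types by -3.65 ± 0.11 (adjusted p = 1.51e-15) and jef, a gene of a membrane transporter family, by -3.29 ± 0.08 (adjusted p = 1e-16). 4 of the 10 genes with the most negative difference are copies of the histone gene His1, whose sequences are nearly identical and whose values were equal, so they count as 1 observation, and reads cannot be assigned to 1 copy: His1:CG33822 was at 0.18 and 0 TPM in C2 and 20.2 and 24.4 TPM in C3. The remaining pair, CG42486 and CG45011, lie inside Pde1c on the opposite strand, and Pde1c, a phosphodiesterase that breaks down cyclic nucleotides, was itself at 35.3 and 34.2 TPM in C2 against a median of 479 TPM.

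C2 against C3 is the comparison of the centrifugal pair. Of 9784 genes tested, 3905 were called (39.9%), 2150 higher in C2 (22.0%) and 1755 lower (17.9%), by limma with Benjamini-Hochberg adjustment at 0.05. With quantile normalization the median of all genes moved from 0.03 to -0.12 and the split turned to 1800 higher and 2007 lower, so which direction held more genes depended on scaling. Differences of more than 1 on the log2 scale, tested as such, were called for 549 genes higher and 222 lower. When the spread was estimated over INTACT and TAPIN types together, 833 and 451 genes were called.

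**Figure D2:**
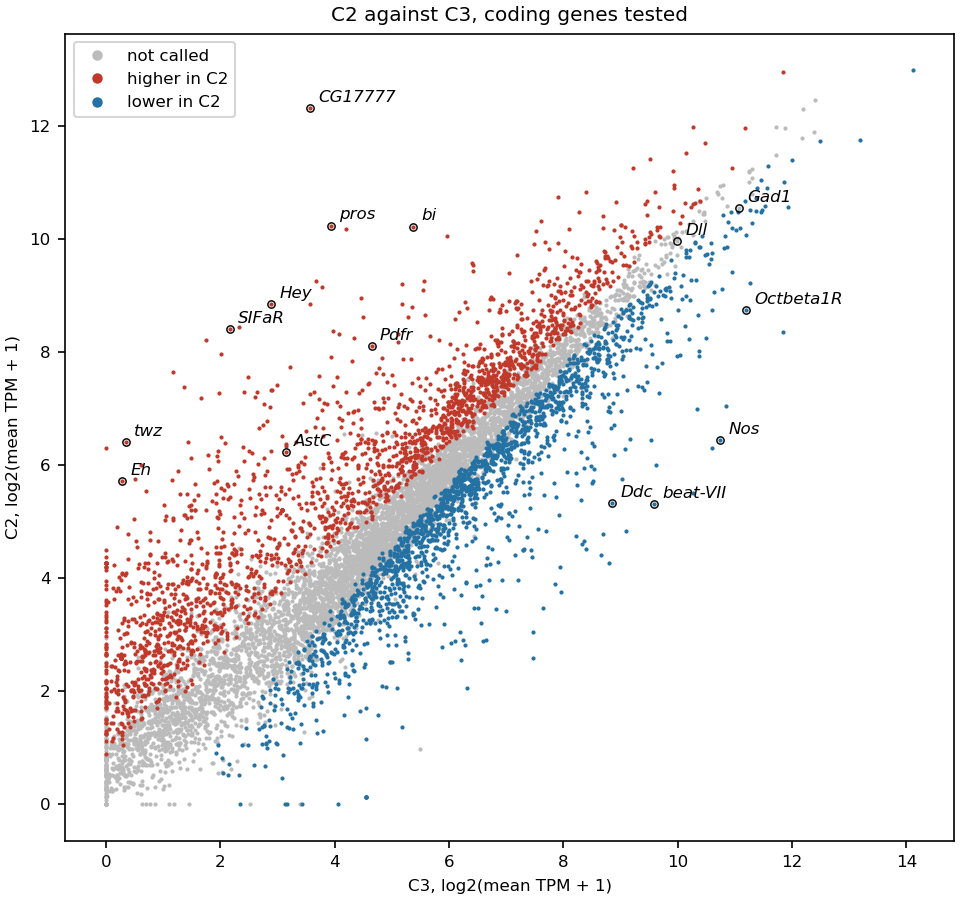
Mean level of each tested coding gene in C2 (vertical) against C3 (horizontal), as log2 of the mean TPM plus 1, with called genes in colour. CG17777 (5133 against 10.8 TPM) and pros (1213 against 14.3 TPM) lie far above the diagonal, Nos and beat-VII far below it, and Gad1 and Dll near it.

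The largest difference in favour of C2 was that of CG17777, a gene on the X chromosome (2186855 to 2187741), at 5570.3 and 4696 TPM in C2 and 6.13 and 15.5 TPM in C3 (8.88 ± 0.81, adjusted p = 1.43e-09). It was listed at 0 in all 4 mock captures, and the next highest neuron type, L1, had a mean of 547 TPM. pros, the homeodomain factor prospero that is best known from dividing neural precursors, was at 1235 and 1189.8 TPM against 12.6 and 16.0 TPM (6.32 ± 0.34, adjusted p = 4.6e-14). Its level in the mock captures was 784 to 1154 TPM, the same order as in C2, whereas C3 lay far under both. Hey, a bHLH repressor that responds to Notch signalling, was at 499 and 427 TPM against 5.25 and 7.55 TPM (5.98 ± 0.26, adjusted p = 9.58e-16) and under 1 TPM in the mock captures.

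The receptor of the peptide SIFamide, SIFaR, was at 323 and 357 TPM in C2 and 2.78 and 4.22 TPM in C3 (6.26 ± 0.25, adjusted p = 1.21e-16). Here C3 was at the low end: it had the lowest mean of all INTACT types, whose median was 141 TPM. R1-6 (3.69 to 4.92 TPM) overlapped C3, and L1 had a mean of 12.5 TPM. SmydA-3, which encodes a SET and MYND domain protein and overlaps exons of Dnz1 and porin on the opposite strand, was at 347 and 250.0 TPM against 2.60 and 2.13 TPM. Dnz1 and porin had C2 means of 76.3 and 728 TPM and C3 means of 42.6 and 805 TPM. The next gene, twz, a gene of the BTB domain family, was at 91.5 and 77.0 TPM against 0.27 and 0.28 TPM. CG5391, CG3014 and CG4461, of which CG4461 belongs to the small heat shock proteins, had C2 means of 199.6, 350.2 and 166 TPM and C3 means of 1.26, 4.04 and 1.56 TPM. CG5391 differed between the C2 libraries by more than most (139 and 260.0 TPM). CG32500 was listed at 0 in both C3 libraries and at 56.6 and 100.2 TPM in C2, and no fold is given. Beside CG4461, further heat shock genes had higher means in C2 than in C3. They were Hsp22 (1824 against 335 TPM), Hsp26 (1066 against 61.4 TPM), Hsp23 (573 against 12.7 TPM), Hsp70Aa (405 against 46.7 TPM), Hsp27 (156 against 4.32 TPM) and Hsp68 (139 against 15.4 TPM). Hsp60D went the other way (11.9 against 94.2 TPM). The cause was not tested.

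On the other side, several of the 10 genes with the largest difference in favour of C3 form nested pairs. Nos, the nitric oxide synthase gene, was at 86.9 and 85.5 TPM in C2 and 1710.1 and 1705 TPM in C3 (-4.29 ± 0.23, adjusted p = 5.78e-14). CG6508 (2L, 10819107 to 10820485) and CG17134 (2L, 10820705 to 10821967) lie within introns of Nos (2L, 10804274 to 10837511) on the opposite strand, with no shared exon. CG6508 was at 24.1 and 16.7 TPM in C2 and 415 and 391 TPM in C3, and CG17134 at 19.1 and 17.3 TPM in C2 and 469.5 and 419 TPM in C3. Over the 62 neuron types CG17134 and CG6508 were also the genes most like Nos (Spearman's rho 0.789 and 0.774), followed by Flo1 at 0.549. The same holds for the position of HP1e within CG8861, CG43101 within hbs, and Obp85a within CG45263, the last on the same strand. In each pair both genes were lower in C2 and no exons were shared. Nuclear RNA holds unspliced transcripts, and without strand the reads of a nested gene and of its host's introns cannot be told apart. CG8861 was at 44.3 and 44.6 TPM in C2 against 1248 and 1202 TPM in C3 and CG45263 at 77.4 and 78.4 TPM against 1459 and 1659.6 TPM. beat-VII, a beat family surface protein, was at 37.0 and 40.5 TPM against 752 and 778 TPM (-4.27 ± 0.18, adjusted p = 5.02e-16). CG11368 completed the list at 2.47 and 3.86 TPM against 68.1 and 88.7 TPM.

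The genes of GABA transmission were high in both types: Gad1 (-0.51 ± 0.29, adjusted p = 0.164) and VGAT (-0.36 ± 0.17, adjusted p = 0.0897) did not pass the test between the types, although both libraries of C2 were below both of C3 for each gene. In the limma fit of the 4 libraries of C2 and C3 alone, both were called lower in C2 (adjusted p = 0.00496 and 0.0161). Of 10 fast transmitter genes tested 5 were higher in C2 than in C3 and none lower, among them VAChT (0.87 ± 0.16, adjusted p = 6.51e-05), whose level in C2 was under the mock captures (124 TPM or more). Of 39 neuropeptide precursors tested 8 were higher in C2 and 4 lower, shares near or under those of all genes (22.0% and 17.9%). AstC was higher by 3.13 ± 0.34 (adjusted p = 3.6e-08), and its neighbour gene AstCC, the precursor of the related peptide Allatostatin double C, by 2.96 ± 0.58 (adjusted p = 0.000191) at 14.3 and 21.2 against 1.25 and 1.50 TPM. Eh was at 47.0 and 56.4 TPM in C2, at 0 and 0.43 TPM in C3 and at 0 in all mock captures, and the authors' model placed it on in C2 and in no other cell type. Proc, the proctolin precursor, was lower in C2 at 464 and 553 against 1237 and 1029 TPM (-1.15 ± 0.21, adjusted p = 6.66e-05). Of 10 peptide processing genes tested, 6 were lower in C2 and 2 higher, among them the carboxypeptidase gene svr at 112 and 106 against 338 and 339 TPM.

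Of 9 genes of nitric oxide signalling tested, 5 were called higher in C2 and 1, Nos, lower (22.0% and 17.9% of all genes tested). The difference of Nos was -4.29 from C3 and 2.35 ± 0.17 from the other INTACT types (adjusted p = 6.96e-07), whose median was 6.82 TPM. C2 held rank 7 and C3 the first rank of 62 neuron types. The 3 deposited Nos transcripts kept similar shares in both: the leading one made up 58.4% and 65.5% of Nos in C2 and 53.2% and 56.6% in C3. Of the soluble guanylyl cyclase that nitric oxide activates, the subunit gene Gycalpha99B was at 139 and 138 TPM in C2 and 103 and 86.2 TPM in C3 (0.55 ± 0.15, adjusted p = 0.00339), and Gycbeta100B at 155 and 147 TPM in C2 and 121 and 127 TPM in C3 (0.28 ± 0.10, adjusted p = 0.0275). The call of Gycalpha99B was lost without C3 replicate 2 (0.42, adjusted p = 0.0712), and that of Gycbeta100B without any 1 of the 4 libraries (0.24 to 0.32, adjusted p = 0.0558 to 0.15). The cGMP phosphodiesterase gene Pde6 was at 186 and 164 against 100.0 and 101 TPM (0.79 ± 0.14, adjusted p = 6.85e-05).

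Of 10 monoamine genes tested 5 were higher in C2 and 2 lower (22.0% and 17.9% of all genes tested). The summed level of Vmat and ple, the markers of monoamine neurons, was 26.8 and 30.0 TPM in C2, 2.72 and 4.96 TPM in C3 and 226 to 339 TPM in the mock captures. Ddc, the decarboxylase of dopamine and serotonin synthesis, was at 33.8 and 44.8 TPM in C2 and 440.3 and 485 TPM in C3 (-3.54 ± 0.21, adjusted p = 3.54e-13), with 79.6 to 289.5 TPM in the mock captures. Trh, the neuronal tryptophan hydroxylase that starts serotonin synthesis, went the other way, with 44.0 and 32.0 TPM against 1.27 and 2.21 TPM (3.83 ± 0.33, adjusted p = 4.91e-10). So did Vmat, the vesicular monoamine transporter (20.6 and 20.8 against 1.87 and 3.75 TPM), and Pu, the first enzyme of the pteridine cofactor (43.4 and 39.1 against 7.02 and 7.23 TPM). In the mock captures Vmat was at 178 TPM or more and Pu at 42.9 TPM or more, and the authors' model placed Trh, Vmat, Pu and Ddc off in C2.

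**Figure D3:**
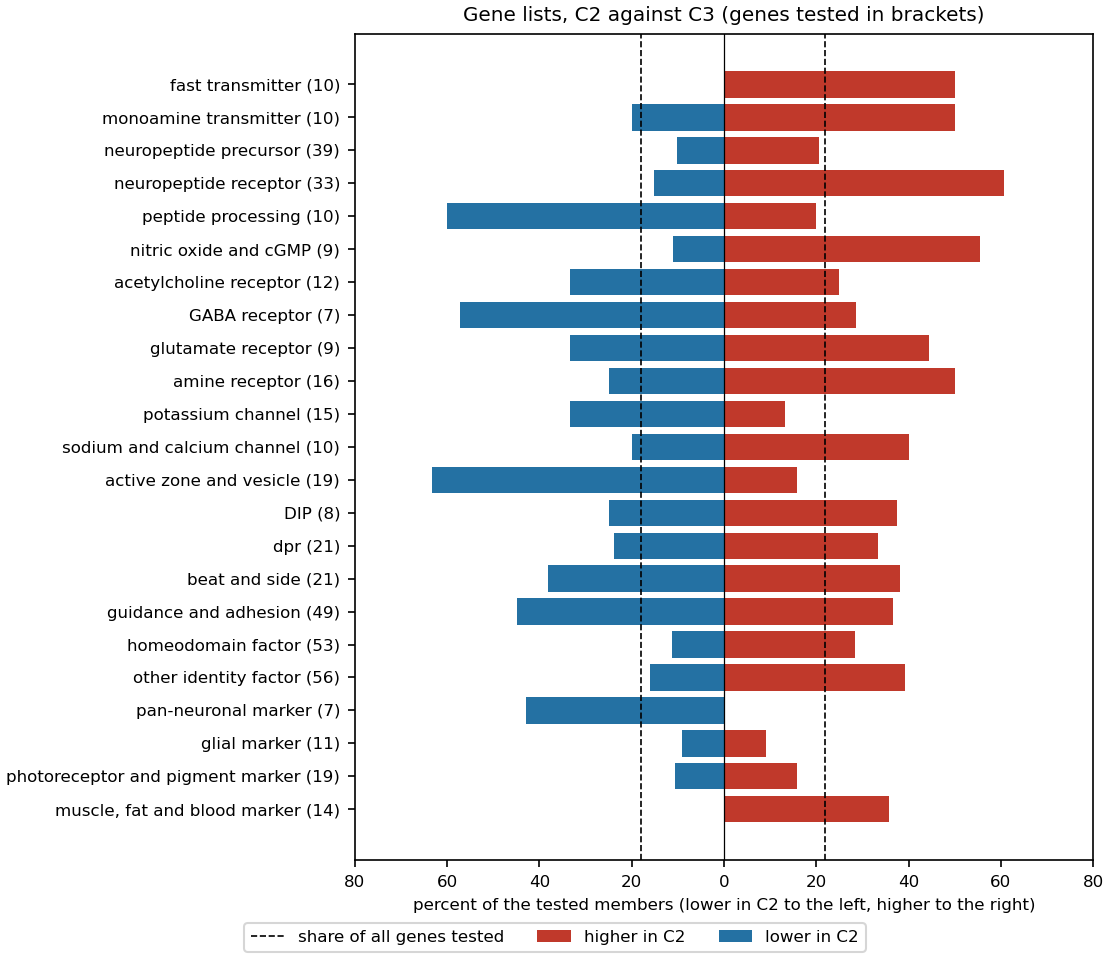
Share of the tested members of each gene list that were called higher (right) or lower (left) in C2 than in C3, with the number of members tested in brackets and dashed lines at the shares of all genes tested (22.0% and 17.9%). More neuropeptide receptors were called higher than lower in C2, and more active zone and vesicle genes lower than higher.

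Of 33 neuropeptide receptors tested, 20 were higher in C2 and 5 lower (22.0% and 17.9% of all genes tested). Their median difference was 1.02 (0.03 over all genes). Of 39 receptors in the authors' model, 12 were on in C2 and 25 off, and 10 were on in C3. Only 4 were on in C2 and off in C3, and 2 were the reverse. More genes were above 0 TPM in the C2 libraries (12875 and 13221) than in those of C3 (11251 and 11471). The part of that gap in the calls of receptors was not tested. Besides SIFaR, the receptor of the circadian peptide PDF, Pdfr, was at 285 and 267 TPM against 25.5 and 22.6 TPM (3.47 ± 0.17, adjusted p = 1.39e-14). The tachykinin receptor TkR99D was at 479 and 437 TPM against a C3 mean of 120.1 TPM (1.92 ± 0.26, adjusted p = 1.42e-06) and CCHa1-R, the receptor of CCHamide-1, at 169 and 135 TPM against 42.2 and 27.8 TPM (2.11 ± 0.34, adjusted p = 1.5e-05). For both of these C2 had the highest mean of all 62 neuron types. The difference of CCHa1-R from the other INTACT types was 4.83 ± 0.25 (adjusted p = 3.97e-12), and C3 stood second among those types. The 2 myosuppressin receptors, MsR1 and MsR2, were both higher in C2, with means in that order of 47.8 and 69.8 TPM against 12.7 and 19.3 TPM. The authors' model placed both off in C2. Receptors lower in C2 included CCKLR-17D1, a drosulfakinin receptor (14.8 and 14.7 against 122 and 121 TPM), and AstA-R1, the receptor of Allatostatin A (15.3 and 15.4 against 46.9 and 49.2 TPM).

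Of 16 amine receptors tested 8 were higher and 4 lower in C2 (22.0% and 17.9% of all genes tested). Octbeta1R, a beta-type octopamine receptor, was at 445 and 410.4 TPM in C2 and 2314 and 2391 TPM in C3 (-2.46 ± 0.23, adjusted p = 2.18e-09), and in C2 it was 3.63 ± 0.17 above the mean of the other types (adjusted p = 3.19e-12), with C2 at rank 4 of 19. Higher in C2 were the serotonin receptor 5-HT1A, at 101 and 91.5 against 9.77 and 11.0 TPM (3.09 ± 0.26, adjusted p = 2.51e-10), and the alpha2-type octopamine receptor CG18208, at 294 and 285 against 33.2 and 33.8 TPM (3.07 ± 0.25, adjusted p = 1.48e-10). The 2 tyramine receptors Oct-TyrR and TyrR had means, in that order, of 69.3 and 34.3 TPM in C2 and 5.83 and 3.00 TPM in C3. A second serotonin receptor, 5-HT2A, was lower in C2, with a mean of 16.6 TPM against 87.9 TPM. For octopamine and for serotonin, then, C2 and C3 each had the higher level of a different receptor.

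Receptors of fast transmitters were called in both directions, as were all genes tested (22.0% higher in C2 and 17.9% lower). Of 12 acetylcholine receptor genes 3 were higher in C2 and 4 lower: nAChRalpha1 was at 173 and 166 against 28.9 and 35.1 TPM (2.38 ± 0.13, adjusted p = 1.53e-13), and nAChRalpha3 at 48.8 and 51.9 against 199.7 and 256 TPM (-2.15 ± 0.16, adjusted p = 3.91e-11). A further subunit gene, nAChRalpha6, was at 45.4 and 69.0 TPM in C2 and 8.57 and 9.43 TPM in C3, against a median of 395 TPM over the INTACT types other than C2. Of 7 GABA receptor genes 2 were higher in C2 and 4 lower. The ionotropic subunit Rdl was at 1055 and 990.2 TPM in C2 and 874 and 1094 TPM in C3 (0.06 ± 0.19, adjusted p = 0.826). Metabotropic receptors diverged: GABA-B-R1 (78.9 and 74.5 against 242 and 274 TPM) and its partner GABA-B-R2 (47.1 and 43.4 against 102 and 106 TPM) were lower in C2, and GABA-B-R3 was higher at 135 ± 4.88 (SD, n = 2) against 15.1 and 12.2 TPM (3.22 ± 0.26, adjusted p = 1.08e-10). GluClalpha, the glutamate-gated chloride channel that makes glutamate inhibitory in flies, was at 1659 and 1602 TPM in C2 and 681 and 725 TPM in C3 (1.21 ± 0.23, adjusted p = 0.000106), with 1402 to 1974 TPM in the mock captures. HisCl1, a chloride channel opened by histamine, the transmitter of photoreceptors, was at 8.65 and 7.78 TPM in C2, below the libraries of all 18 other INTACT types (-1.88 ± 0.21, adjusted p = 0.0037), a call that was lost without C2 replicate 1 (-1.95, adjusted p = 0.0553), without C2 replicate 2 (-1.81, adjusted p = 0.131) and with TAPIN types included (-1.26, adjusted p = 1).

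Among channels, NaCP60E, a sodium channel relative, was at 2985 and 2488 TPM in C2 and 705 and 762 TPM in C3 (1.89 ± 0.12, adjusted p = 2.15e-12), and its C2 libraries lay above those of all 18 types. The potassium channel gene eag was at 103 and 98.6 against 17.2 and 15.4 TPM (2.56 ± 0.16, adjusted p = 9.3e-13), and KCNQ at 15.7 and 15.6 against 53.0 and 58.1 TPM (-1.76 ± 0.28, adjusted p = 9.32e-06). The gap junction gene shakB was at 665 and 572 TPM in C2 and 489 and 576 TPM in C3, and above the mean of the other types by 1.72 ± 0.13 (adjusted p = 0.000135), a call that was lost when TAPIN types were included (0.85, adjusted p = 1). C2 ranked 6 of the 19 INTACT types in shakB. Genes of the active zone and synaptic vesicle leaned to C3: of 19 tested, 12 were lower in C2 and 3 higher (17.9% and 22.0% of all genes tested). Their median difference was -0.60. Snap25, a fusion SNARE, was at 184 and 149 against 653 and 675 TPM (adjusted p = 2.32e-11), the active zone scaffold Rim at 383 and 421 against 1275 and 1359 TPM (-1.71 ± 0.11, adjusted p = 1.87e-12), and Syt7, a calcium sensor, at 164 and 141 against 475 and 503 TPM (-1.68 ± 0.14, adjusted p = 4.74e-10). The C2 mean of Syt7 was the lowest of all 62 neuron types. The complexin gene cpx, a clamp of vesicle fusion, was an exception at 8215 and 7788 against 3231 and 4074 TPM (1.14 ± 0.13, adjusted p = 5.59e-08). The pan-neuronal genes nSyb, brp and Syt1 were also lower in C2 than in C3 (differences of -0.84, -0.66 and -0.50, the last not called without C3 replicate 2, with -0.35 and adjusted p = 0.0656), and their part in the counts of this list was not tested.

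**Figure D4:**
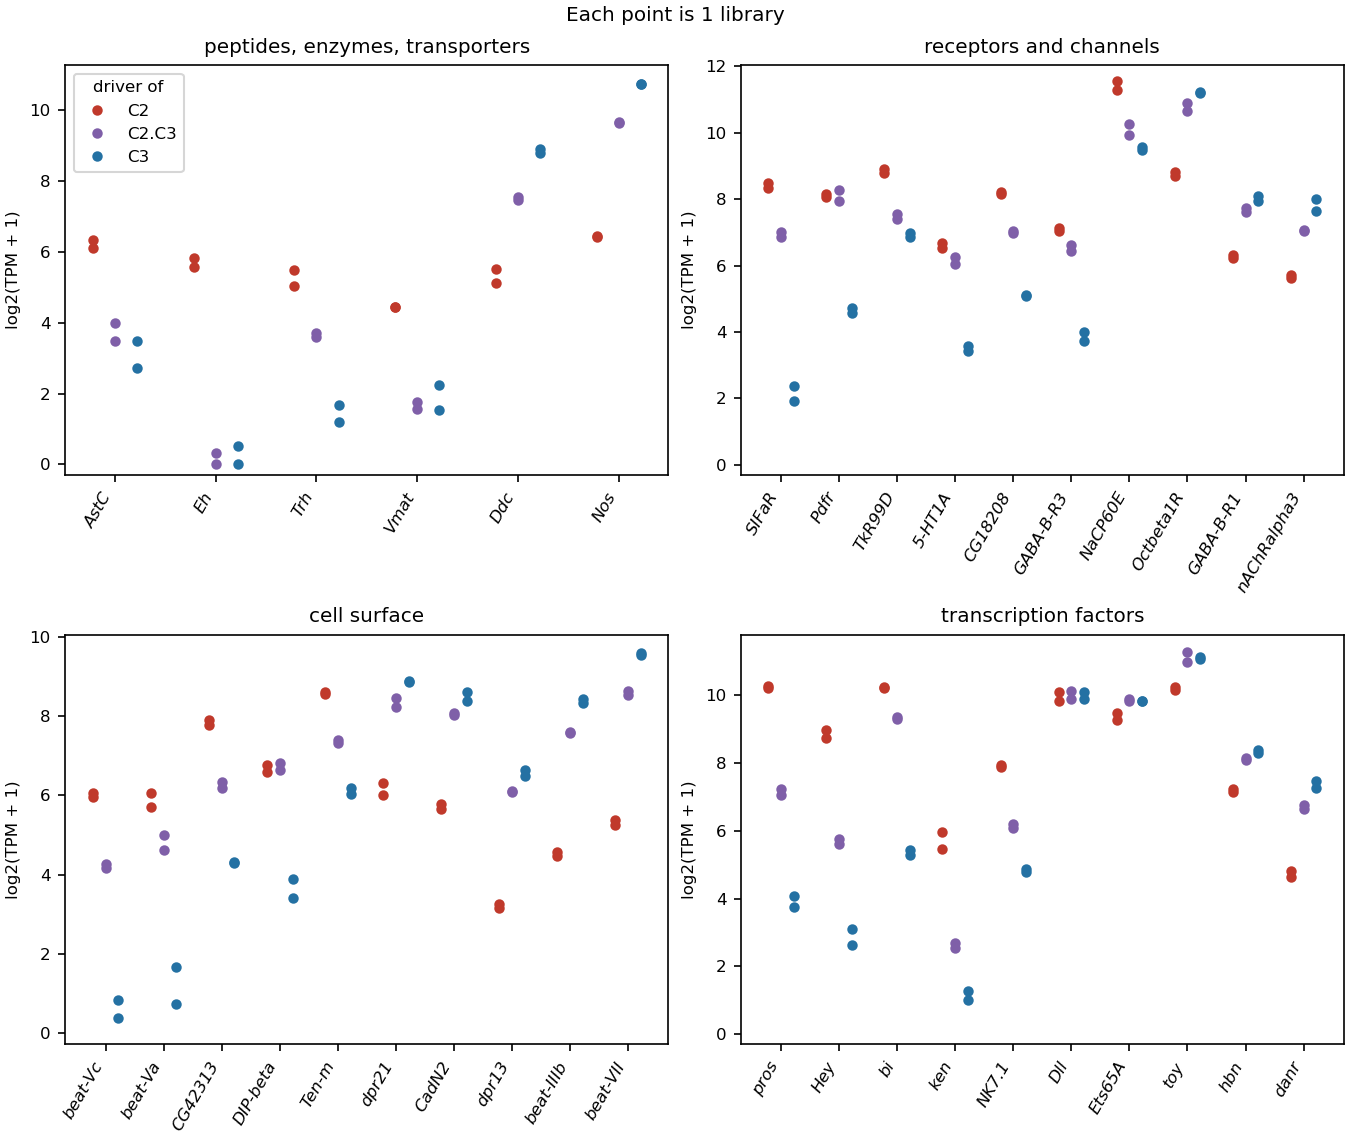
Level of 36 genes in each library of the C2, combined and C3 drivers, as log2(TPM + 1), by function. For Dll the C2 and C3 libraries overlapped, and for the other 35 they did not. The combined driver was between the means of C2 and C3 for most, below the C3 mean for Eh and Vmat, and above the C2 mean for Pdfr and DIP-beta.

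Cell surface genes that guide wiring were called in both directions, as were all genes tested (22.0% higher in C2 and 17.9% lower). Of 21 beat and side genes 8 were higher in C2 and 8 lower, of 21 dpr genes 7 and 5, and of 49 other guidance and adhesion genes 18 and 22. The 3 genes of the beat-V group moved together: beat-Va (66.2 and 51.4 against 2.16 and 0.66 TPM), beat-Vb (61.1 and 59.5 against 1.91 and 3.09 TPM) and beat-Vc (61.5 and 65.6 against 0.29 and 0.78 TPM) were all higher in C2. The difference of beat-Vc was 5.41 ± 0.33 (adjusted p = 7.45e-13). Against them stood beat-IIIb (21.0 and 22.8 against 325 and 346 TPM, -3.88 ± 0.16, adjusted p = 3.36e-16) and beat-VII. Within the side family, whose proteins bind beat proteins, CG42313 was higher in C2 (240.4 and 219 against 18.6 and 18.9 TPM) and CG12484 lower (27.5 and 25.8 against 415 and 409 TPM).

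DIP-beta was at 108 and 95.7 TPM in C2 and 13.7 and 9.53 TPM in C3 (3.04 ± 0.33, adjusted p = 2.68e-08), and DIP-gamma at 6.49 and 7.01 TPM in C2 and 35.9 and 37.2 TPM in C3 (-2.28 ± 0.34, adjusted p = 4.67e-06). The authors' model called DIP-beta on in C2 and off in C3 and DIP-gamma the reverse. Mock captures held 112 to 424 TPM of DIP-beta. Of the dpr genes, dpr5 was higher in C2 (132 and 114 against 17.8 and 20.5 TPM), and dpr13 (7.92 and 8.53 against 88.5 and 98.8 TPM) and dpr21 (78.8 and 64.0 against 472 and 469 TPM) were lower. The C2 libraries of dpr21 lay below those of all 18 other INTACT types (-2.35 ± 0.11, adjusted p = 1.34e-10). dpr17 was shared with C3 and higher than the mean of the other types, at 316 and 326 TPM against a median of 20.5 TPM (3.68 ± 0.18, adjusted p = 7.24e-12), with C2 at rank 3 of 19.

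Further adhesion genes with large differences were the teneurin gene Ten-m (378 and 391 against 64.8 and 71.4 TPM, 2.48 ± 0.14, adjusted p = 9.65e-14) and the netrin receptor unc-5 (239 and 191 against 62.7 and 63.6 TPM, 1.74 ± 0.17, adjusted p = 7.82e-09), both higher in C2. The cadherin gene CadN2 (53.7 and 49.8 against 337 and 391 TPM, -2.79 ± 0.18, adjusted p = 3.25e-12) and the immunoglobulin gene hbs (11.6 and 13.3 against 241 and 255 TPM, -4.21 ± 0.32, adjusted p = 5.83e-11) were lower. nrv2, a subunit of the sodium pump that is on the glial list, was at 414 and 369 TPM in C2 and 35.0 and 40.8 TPM in C3, with C2 the highest of all 62 neuron types. The mock captures held 37.5 to 165 TPM of nrv2, and the defining glial gene repo was under 1 TPM, as given above.

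Of 53 homeodomain genes tested 15 were higher in C2 than in C3 and 6 lower, together 39.6% against 39.9% of all genes tested. Of 56 other identity factors 22 were higher and 9 lower (55.4%). The T-box gene bi (optomotor-blind) was at 1180.2 and 1214 TPM in C2 and 42.0 and 38.4 TPM in C3 (4.86 ± 0.26, adjusted p = 5.5e-14), and 5.08 ± 0.19 above the mean of the other types (adjusted p = 4.71e-15). Lai, at 1105 and 1325 TPM, overlapped C2 in bi, and Lawf2 was at 808 and 811 TPM. NK7.1, a homeodomain gene, was at 242 and 236 against 28.5 and 26.3 TPM (3.08 ± 0.11, adjusted p = 3.67e-17). ken, a zinc finger repressor, was at 43.2 and 61.1 against 1.00 and 1.44 TPM (4.57 ± 0.40, adjusted p = 5.29e-10) and rn, a zinc finger factor of leg and wing patterning, at 38.7 and 38.1 against 1.99 and 1.61 TPM (3.82 ± 0.27, adjusted p = 1.54e-11). The Hox gene Antp was at 19.2 and 19.4 TPM in C2, with 0.18 and 0.45 TPM in C3 and 0 to 28.9 TPM in the mock captures. Among the other INTACT types the highest library of Antp was 1 of Dm12 (16.9 TPM), and the highest mean was that of Lawf1 (12.7 TPM). The neighbouring genes dan and danr, which encode related pipsqueak-domain proteins, were both lower in C2 (means in that order of 18.2 and 25.6 against 104 and 164 TPM). The zinc finger gene mamo was also lower (replicates at 56.5 and 58.0 against 191 and 200.1 TPM), and its C2 libraries were below those of all 18 other types.

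The driver of C2 and C3 together gave libraries that were not used in the calls. Of the 3905 called genes, 3089 (79.1%) had a mean in the combined driver between those of C2 and C3, and of the 2012 with a difference of more than 1 this was so for 1709 (84.9%). The place was expressed as a percent of the way from C3 (0) to C2 (100) in TPM. For 110 genes lower in C2 by more than 2 on the log2 scale, with at least 50 TPM in C3 and with libraries that did not overlap, the median was 43.8% (all 110 between the types). For the 194 genes higher in C2 under the same rule it was 17.4%, and 85 of them (43.8%) lay under 15%, against 1 (0.909%) of the 110. The limit of 15% was set after the values had been seen and carries no test.

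Several of the genes described above were at the low end. Eh (-0.175%), SmydA-3 (0.117%), CG5391 (-0.32%), twz (1.16%), Vmat (-3.60%) and Pu (3.02%) were near the C3 level with the combined driver. AstC was at 14.9 and 10.1 TPM (7.01%), ken at 5.43 and 4.85 TPM (7.70%), Hey at 53.0 and 47.5 TPM (9.60%), pros at 132 and 149.7 TPM (10.6%) and CG17777 at 721 and 786 TPM (14.5%). Near the 43.8% of the genes lower in C2 were nAChRalpha1 (44.5%), beat-Va (45.2%), bi (51.9%) and unc-5 (53.1%), and at or past the C2 level Pdfr (100.1%), MsR1 (108%) and DIP-beta (104%). Nos was at 823 and 802 TPM (55.2%), beat-VII at 397 and 369 TPM (52.6%) and Octbeta1R at 1590.2 and 1884 TPM (32.0%). The authors' model placed AstC off in the combined driver. A value that moves with this pattern is the GAL4 DNA-binding transcript, at 305 and 229 TPM with the combined driver against 1055 and 910.5 TPM with C2_d1, and the DNA-binding domain is driven by different fragments in the 2 lines. The part of the weakly labelled central brain cells of C2_d1, or of any other difference between the lines, in the low levels of these genes was not tested.

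**Figure D5:**
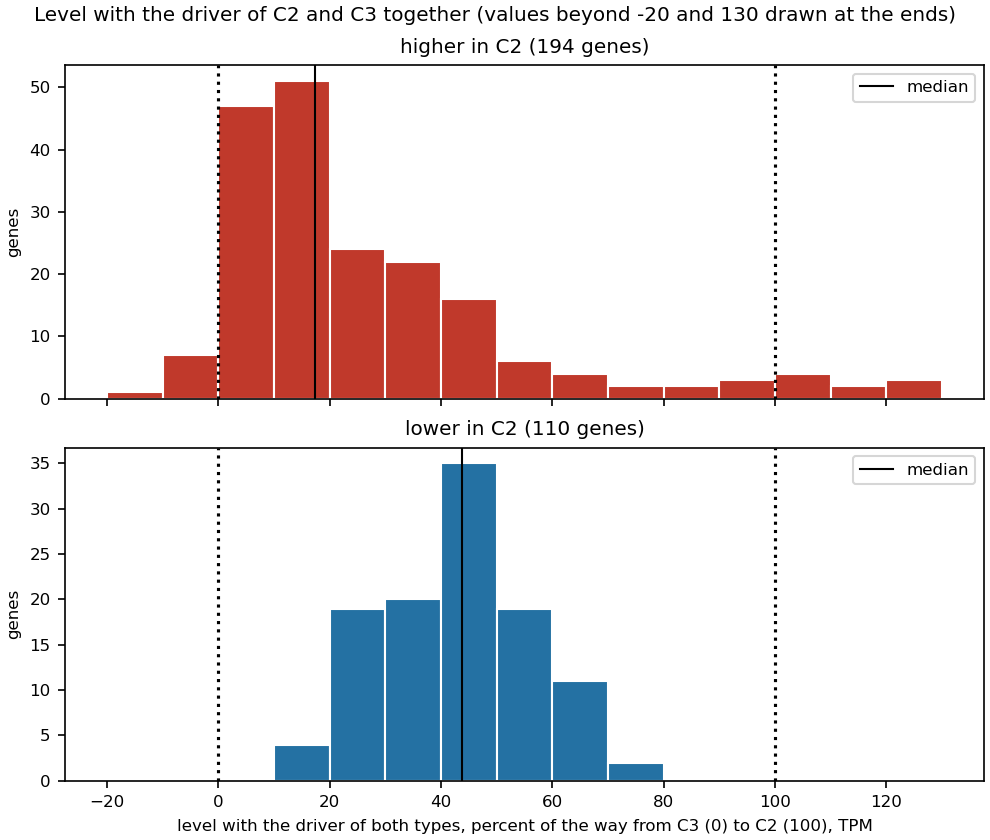
Number of genes by the level of the combined driver, as a percent of the way from the C3 mean (0) to the C2 mean (100), for 194 genes higher and 110 genes lower in C2. The genes lower in C2 centre on 43.8%, whereas those higher in C2 pile up near 0 with a median of 17.4%.

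The deposited model of the authors gives, for each of 12377 genes and each type, the probability that the gene is on. With on at 0.8 or more and off at 0.2 or less, C2 had 6882 genes on, 5145 off and 350 without a clear state, and 6518 of the genes on were on in both libraries taken alone. The count ranked 8 of 62 neuron types, which ranged from 3341 to 7828. C2 and C3 shared 6148 genes on, 655 were on in C2 and off in C3, and 161 the reverse. By these states the type closest to C2 was Tm3, with 8.80% of 8640 clearly called genes in opposite states, followed by L4 (9.01%), Lawf1 (9.21%) and C3 (9.33%). By Pearson's r over modeled genes C3 was second (0.928) after Tm3 (0.934). The 10 closest types by states all had INTACT libraries, as did C2, and among them Lawf1 also had a driver made with TAPIN. Protocol and likeness cannot be told apart in that order.

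Genes on in C2 and in at most 2 other cell types, with C2 the highest of all, numbered 14. By level they were SmydA-3, CG2444, CG4546, Eh, CG43064 and CG3457, followed by CG3795, CG14851, CG42851 and 5 cuticle protein genes of 1 cluster on arm 3L. SmydA-3, CG2444, CG4546 and Eh had means of 298, 101, 82.3 and 51.7 TPM in C2. The cuticle genes Lcp65Ag3, Cpr65Aw, Cpr65Av, Lcp65Ae and Lcp65Ac had C2 means of 5.08 to 12.6 TPM, had means of at most 2.57 TPM in the other INTACT types, and had similar levels with the combined driver, such as 12.5 and 8.61 TPM for Cpr65Aw. CG4546 and Lcp65Ac were on in both C2 and C3. Gad1 and AstC did not meet this rule, Gad1 because it was on in 6 other cell types and AstC because it was on in 4. The genes whose levels over the 62 neuron types most resembled AstC were sqh, the myosin light chain gene (Spearman's rho 0.707), CG15201 (0.692), Arp3, an actin nucleation subunit (0.679), GstE8 and Irbp18 (both 0.677). The 62 types mix INTACT and TAPIN. In this ranking, as in that for Nos, protocol and likeness cannot be told apart.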

How the data were processed

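Nuclear RNA was amplified with the Nugen Ovation v2 kit, and the authors trimmed reads with seqtk and quantified transcripts with kallisto 0.43.1 (submitters' processing notes) on Ensembl 91 transcripts. The authors removed ribosomal, spike-in and construct sequences and deposited TPM rescaled over 13931 coding genes. They also deposited, per library and per cell type, the probability (a fraction) that a gene is on, from a mixture model of TPM. Of 266 libraries, the 40 INTACT libraries of 19 single neuron types that passed the authors' quality control were fitted with limma 3.58.1 (R 4.3.3) on log2(TPM + 1), with 1 group per type and 21 residual degrees of freedom, over the 9784 genes that reached 10 TPM in 2 or more of them. The difference from C3 was tested with eBayes and that from the mean of the other types with treat at a log2 change of 1, both two-sided with Benjamini-Hochberg adjustment at 0.05. TPM carry no read depth, so the depth per library is unknown. For simulated data, C2 was set equal to C3 except in a small set of changed genes. There the C3 comparison recovered 49.0% of genes changed by a log2 of 1 and 83.0% of those changed by 2 (9616 genes). Of the simulated calls 2.9% were false. In the real data 39.9% of genes were called, so these shares need not hold for the real comparison. Named genes are the 10 largest called differences in each direction with a mean of at least 50 TPM and separate libraries, the marker genes, and members of gene lists. The members and lists were chosen with earlier results of these data known. Coordinates are from Ensembl 115, and figures were drawn with matplotlib 3.10.9. Other pseudocounts, filters, normalizations, sets of libraries and thresholds were tried.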

Additional observations from a re-analysis of the deposited data

How the results depend on the processing

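The count of genes called between C2 and C3 stayed within 1.5 times of 3905 with a pseudocount of 5 TPM (3919), without a filter (4606), with quantile normalization (3807), without R1-6 (4295), with the 4 libraries of C2 and C3 alone (4113) and without any 1 library of C2 or C3 (2892 to 3365). It was 1284 when TAPIN types shared the estimate of the spread and 771 when a log2 change of at least 1 was tested. Against the other INTACT types, 543 genes became 358 to 539 on leaving out 1 library, with 358 for C2 replicate 1, and 4544 with no minimum change (2261 higher and 2283 lower). With the replicate number as a block, a replicate block, 3893 and 538 genes were called and no named gene changed its call. The numbers did not pair the libraries: over 153 pairs of types the deviations of same-numbered libraries correlated at -0.21 to 0.15, and 8 pairs were over 0.1, among them C2 and C3 at 0.14. Of 105 named genes called against C3, 83 kept the call under every alternative that tested them, and of 42 called against the other types 33 were. None of these changed direction under any of them. The calls of TkR99D, MsR2, GABA-B-R2, Proc, Pde6 and danr against C3 were lost only when TAPIN types shared the spread or when a change of at least 1 was tested. Against the other types, those of shakB (0.85), HisCl1 (-1.26), CG45011 (-2.61) and the 4 His1 copies (-2.74) were lost when TAPIN types were included. Calls were also gained: Gad1 (-0.51), VGAT (-0.36) and Ets65A (-0.44) were called lower in C2 than in C3 with the 4 libraries alone. The marker rule gave 14 genes, 7 when no other type might be on, 32 when 5 might and 40 among neurons only. C3 ranked 4 by states, 2 by Pearson's r over modeled genes and 3 over the INTACT libraries. Read depth limits all low levels and is unknown. The cause of these changes was not tested.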
